A study of Mus musculus with 12 samples.

Results

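The comparison described here sets anti-CTLA-4 against an isotype control antibody in tumour-specific CD8 T cells. It covers every gene that has a fold change in the authors' deposited table of these groups, 17833 of the 48709 genes listed there. Mice were wild-type C57BL/6 animals of post natal day 91 that carried TRAMP-C2, a transplantable mouse prostate tumour line. The anti-CTLA-4 arm received the blocking antibody and the isotype arm a control antibody of no stated target, each on days 3, 6 and 9 per the sample labels or days 3, 6 and 8 per the series text. On day 28, T cells that stained for CD45, CD3 and CD8, and for the Spas-1 but not the Spas-2 specificity, were sorted from the lymph nodes that drain the tumour. Cells of 5 mice were pooled in each arm and the pool was divided into 3 libraries. The 3 libraries of an arm are therefore splits of a single pool, p-values reflect how far splits of a pool differ and nothing else, and a difference between treatments and a difference between pools cannot be told apart.

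CTLA-4 is an inhibitory receptor that T cells place on their surface after activation. It competes with the costimulatory receptor CD28 for the ligands CD80 and CD86, so an antibody that blocks it leaves more ligand to CD28. Spas-1 is an antigen of TRAMP tumours recognised by CD8 T cells, which kill through perforin and granzymes and secrete interferon-gamma.

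Each library started from 0.25 ng of RNA and 21 cycles of preamplification, per the labels' protocols. Library sizes, recovered from the deposited means, were 14729713, 19092840 and 29583827 reads for anti-CTLA-4 and 23973359, 24512669 and 32867235 reads for isotype. They cannot be tied to replicate numbers, so reads per library are listed below from the smallest library of a group to the largest. Levels are the larger of the 2 group means in RPKM, reads scaled to exon length and to library size. Fold changes are log2 values of anti-CTLA-4 over isotype, given ± the standard error (SE) that the authors' p-value implies, and a gene is called where their false discovery rate, printed as the adjusted p, is under 0.05.

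The markers of the sorted cells were abundant and none was called. All 14 CD8 T cell markers were tested, with larger means between 33 and 1128 RPKM and log2 fold changes between -1.09 and 0.53 in the authors' deposited table, where the lowest adjusted p among them was 0.237. Cd8a, the alpha chain of CD8, had a larger mean of 138 RPKM and a log2 fold change of -0.13 ± 0.43 in the authors' deposited table. Cd3e, a signalling chain of the T cell receptor complex, had 189.6 RPKM and -0.43 ± 0.50 there, by the same deposited table of the authors. These values sit near the median tested gene, which the authors' scaling placed at a log2 fold change of -0.62. Tested genes included 1920 with a larger mean of 0, whose median was -0.68, while those at 1 RPKM or more had a median of -0.47. The centre of -0.62 matters for every direction given below. For 440 genes with both group means known and an isotype mean of 5 RPKM or more, the log2 ratio of the means exceeded the authors' log2 fold change by a median of 0.94 (SD 0.08), so scaling by library size would place the median gene at 0.33.

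After anti-CTLA-4, 754 of 17833 genes were called in the authors' deposited table (4.23%), 488 higher (2.74%) and 266 lower (1.49%). At an unadjusted p under 0.05 there were 4085 genes, 2633 higher and 1452 lower. Of the called genes 64.7% were higher. That share became 82.6% when fold changes were centred on the median tested gene and 86.9% when scaled by library size, with 679 and 667 of the 754 calls kept. Fold changes of called genes were large, with a median log2 fold change of 6.78 (median SE 1.77) among those called higher and of -8.19 (median SE 2.06) among those called lower. They were of middling abundance, with a median larger mean of 6.05 RPKM for those called higher and 5.83 RPKM for those called lower, against 1.56 RPKM for all tested genes.

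The called share depended on level, and the 2 directions differed in how. No gene at or below 0.1 RPKM was called. At 5 to 10 RPKM 7.34% of 2192 tested genes were called higher and 2.51% lower, and at 20 to 50 RPKM 1.44% of 1246 were called higher and 1.61% lower. At 100 RPKM or more 0 of 292 genes were called higher and 12 were called lower (4.11%), with log2 fold changes between -2.96 and -1.19 in the authors' deposited table. The median log2 fold change also differed between bands of level, at -0.58 for genes above 0 and up to 0.1 RPKM, 3.04 at 0.5 to 1 RPKM, -0.91 at 20 to 50 RPKM and -0.64 at 100 RPKM or more. Among the 20 genes of highest level, 13 of them encoded by the mitochondrial genome, larger means were between 1474 and 25556 RPKM and log2 fold changes between -1.19 and 0.14 in the authors' deposited table. The 1 gene called among these 20 was Malat1, an abundant nuclear noncoding RNA.

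**Figure D1:**
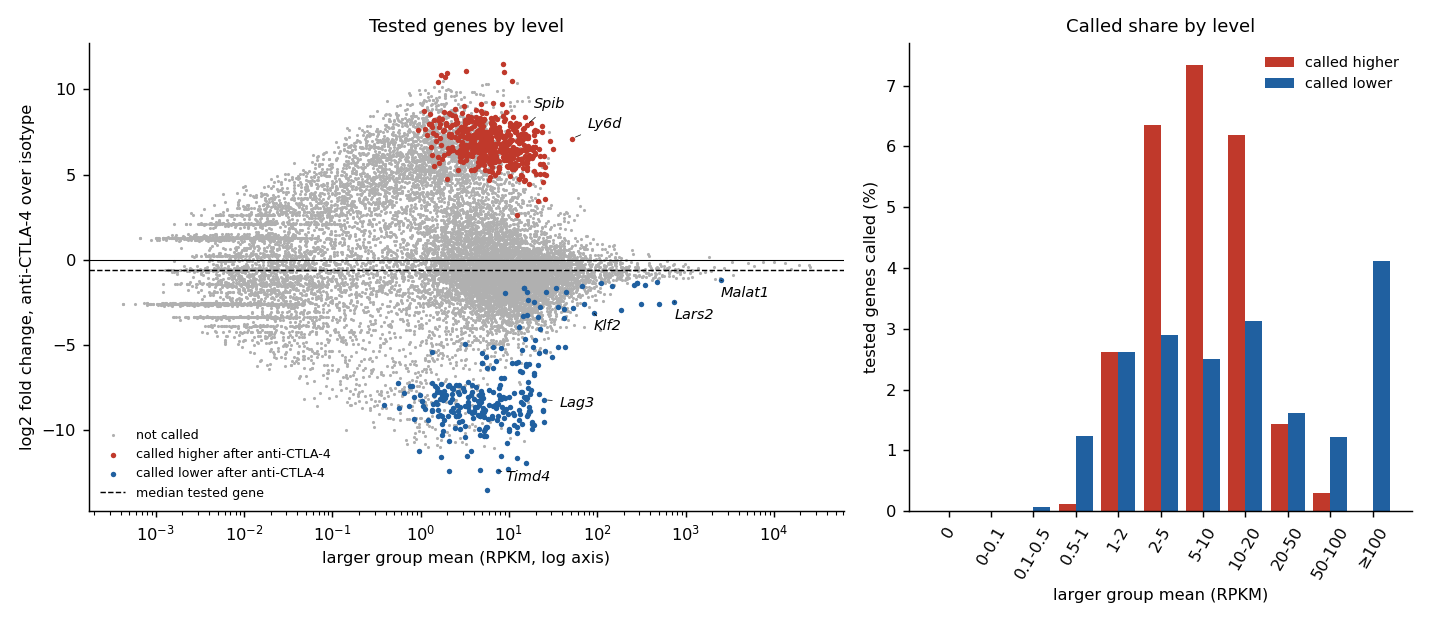
Left, every tested gene with a mean above 0, with the larger group mean in RPKM on a log axis and the log2 fold change of anti-CTLA-4 over isotype; red points were called higher, blue points lower and grey points were not called, and the dashed line marks the median tested gene at -0.62. Right, the percent of tested genes called higher and lower in each band of level: calls of both kinds gather between 1 and 50 RPKM, and at 100 RPKM or more the 12 calls were all lower.

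Reads per library show what the calls rest on. They could be recovered for the anti-CTLA-4 libraries of 291 of the 488 genes called higher. In 210 of these (72.2%) each of the 3 anti-CTLA-4 libraries held 10 reads or more, and the largest library gave a median of 56% of the mean. In 30 (10.3%) a single anti-CTLA-4 library gave 80% or more of the mean. Of the 266 genes called lower, isotype reads could be recovered for 129, and in 116 of these (89.9%) a single isotype library gave 80% or more of the mean, with a median share of 99.7% from the largest. The library in question was the smallest isotype library for 39 genes, the middle one for 38 and the largest for 39. Only 2 of the 129 genes had 10 reads or more in all 3 isotype libraries. Genes that were not called and had a larger mean of 2 to 10 RPKM rested on 1 library in 31% of cases where the anti-CTLA-4 mean was the larger and in 78.2% where the isotype mean was, against 11.6% for genes called higher and 90.5% for genes called lower in that band. Reads were recovered more often for genes with few reads, so these shares describe the recovered genes and not the whole of either set.

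**Figure D2:**
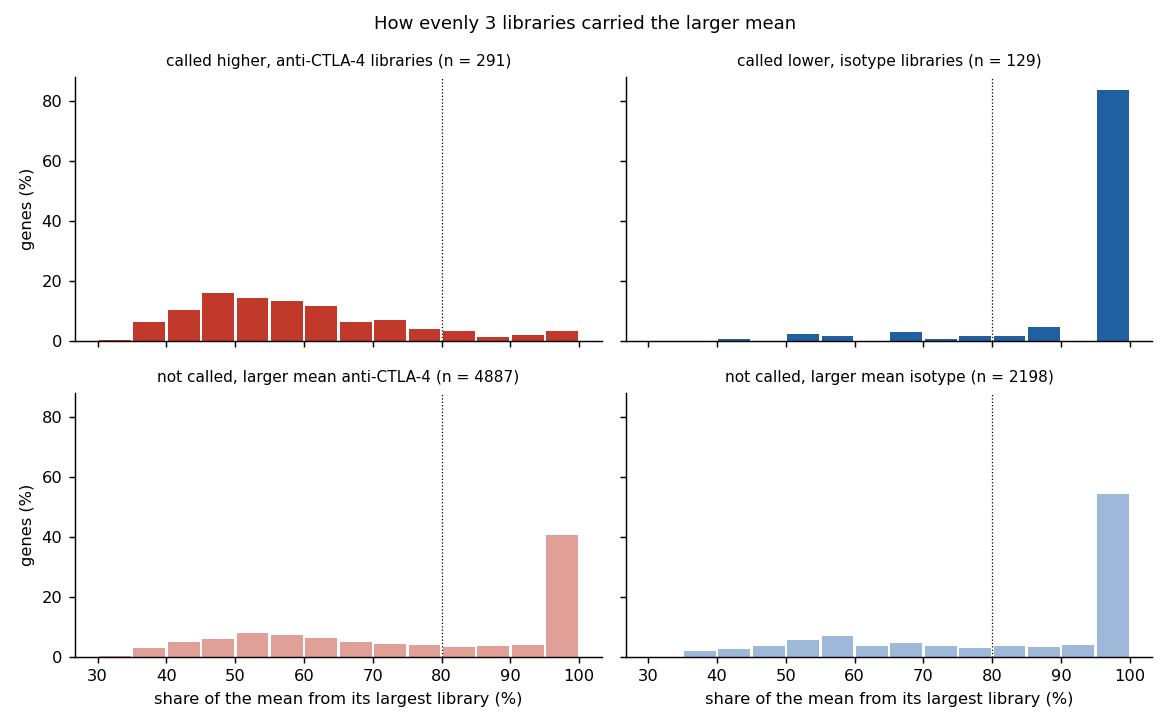
Share of the larger group mean that came from its largest library, in percent, for genes whose reads per library were recovered; the height of a bar is the percent of the genes in the panel and the dotted line marks 80%. Genes called higher after anti-CTLA-4 spread between 35 and 80%, whereas most genes called lower lie in the last bar, next to 100%.

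For 19 of the genes called higher, reads were known in both groups, free of the authors' scaling. Isotype reads summed to between 1 and 25 over 3 libraries (median 7) and anti-CTLA-4 reads to between 553 and 3412. In 16 of the 19 the lowest anti-CTLA-4 library held more reads than the highest isotype library. These genes were selected by their call and by isotype reads that could be solved, which succeeds more often with few reads. Low isotype reads and separated groups are thus partly fixed by that selection and give the calls no separate support. The examples that follow were chosen after their values were seen. Tmem9, a transmembrane protein of endosomes and lysosomes, had 834, 722 and 1856 reads in the anti-CTLA-4 libraries, against 2, 8 and 4 in the isotype libraries. Sertad1, a cofactor of cell cycle transcription, had 400, 384 and 943 reads with anti-CTLA-4, against 5, 3 and 3 with isotype. Every anti-CTLA-4 library of both genes stood far above every isotype library. Slc27a4, a fatty acid transport protein, had 425, 981 and 426 reads with anti-CTLA-4, against 4, 1 and 3 with isotype. Syk, a tyrosine kinase of antigen receptors best known from B cells, had 133, 385 and 843 reads with anti-CTLA-4, against 4, 4 and 0 with isotype. In contrast, Cmc4 had 68, 1 and 607 reads with anti-CTLA-4, against 0, 1 and 0 with isotype, so that its groups met at 1 read. For many of the other genes called higher the isotype mean is known only as an upper bound, set by the tables of the other arms. Over all 488 genes called higher, the 19 included, the anti-CTLA-4 mean was at least 10 times the bound in 211 (43.2%) on the RPKM scale.

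**Figure D3:**
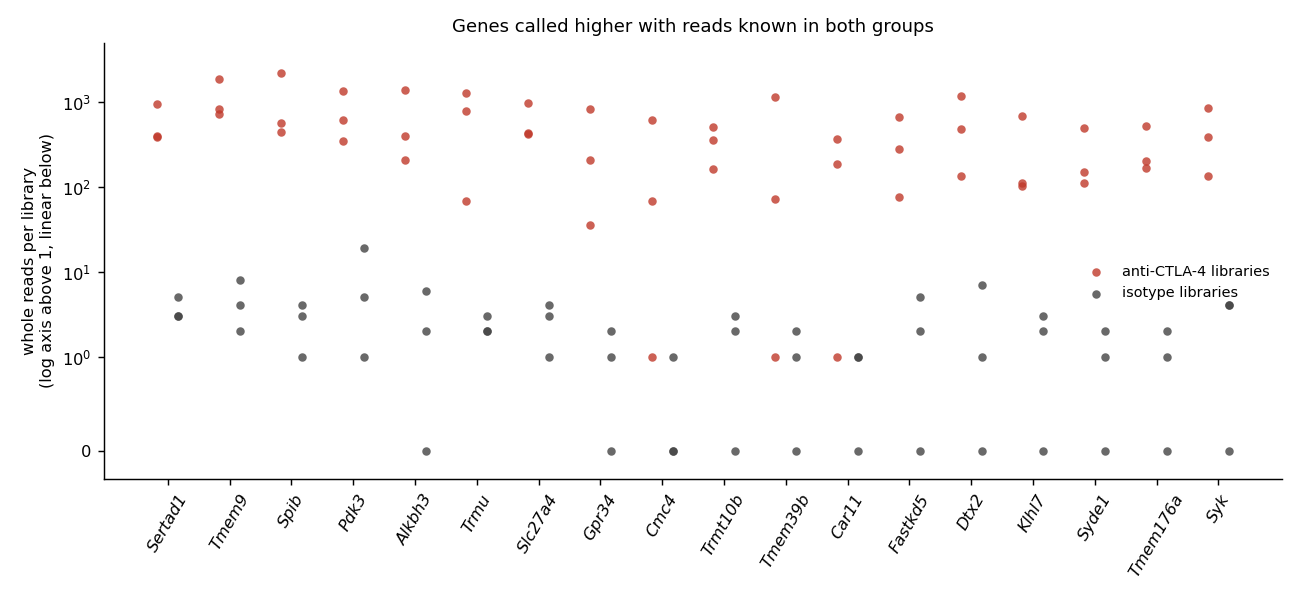
Whole reads per library for the 18 annotated genes that were called higher and have reads known in both groups, with the 3 anti-CTLA-4 libraries in red to the left and the 3 isotype libraries in dark grey to the right of each name. The axis is logarithmic above 1 read and linear below; isotype libraries hold 0 to 19 reads, and anti-CTLA-4 libraries mostly hold 36 to 2211.

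The most precise changes were mostly decreases of abundant RNAs. Of 1248 tested genes with an implied SE under 1, 36 were called (2.88%), 3 higher and 33 lower, and the median of all 1248 was itself -0.83. Those called higher included Map2k2, the MAP kinase kinase MEK2, at 3.46 ± 0.93 (adjusted p of 0.0222), and Psd4, an exchange factor for ARF6, at 2.63 ± 0.73 (0.0302), as log2 fold changes in the authors' deposited table. Of the 33 called lower, 7 remained called when fold changes were centred on the median gene and 6 when scaled by library size. Those that remained under both included Klf2, Lsm4, Ankhd1, Lars2 and Rn18s-rs5. Klf2, a transcription factor that keeps naive and memory T cells in circulation, had an isotype mean of 92.1 RPKM and fell by 3.14 ± 0.69 on the log2 scale of the authors' deposited table. Lsm4, a subunit of the ring that binds U6 RNA and decapping substrates, had an isotype mean of 185 RPKM and fell by 2.96 ± 0.59 on the log2 scale (adjusted p of 0.00141) in the authors' deposited table. Ankhd1, a large ankyrin repeat protein, fell by 4.03 ± 0.84 on the log2 scale (adjusted p of 0.00191) in the authors' deposited table.

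The other precise decreases lost their call under scaling by library size, and all but Sidt2 also lost it when centred. Sidt2, a lysosomal membrane protein, fell by 2.83 ± 0.65 on the log2 scale of the authors' deposited table. Some were as large as those that remained, such as Ddx42, an RNA helicase, which fell by 3.42 ± 0.92 on the log2 scale in the authors' deposited table. Smaller ones included Lat, the adaptor downstream of the T cell receptor, Ptprc, which encodes the phosphatase CD45, and Ltb, a lymphotoxin subunit. Ltb fell by 1.29 ± 0.38 (adjusted p of 0.0483), with an isotype mean of 475 RPKM in the authors' deposited table, and stood at -0.67 when centred and -0.35 by library size, uncalled in both. The same loss of the call met Malat1, Tpt1, Eef1b2, Chchd2, Mat2a, Birc6, Lat, Ptprc and others of this group.

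**Figure D4:**
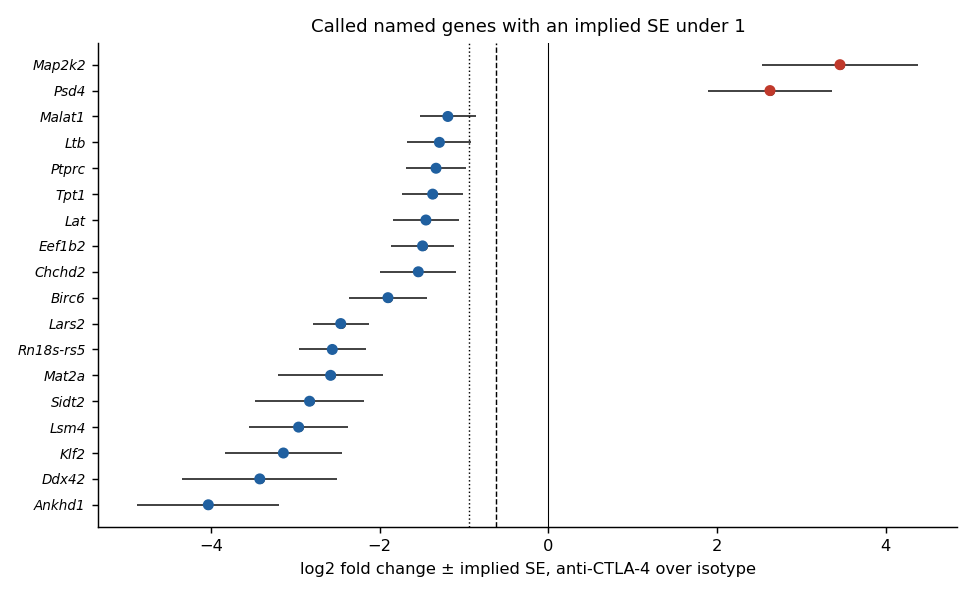
Log2 fold change of anti-CTLA-4 over isotype with its implied SE as a horizontal bar, for 18 annotated genes of the 36 that were called with an SE under 1; red is higher and blue is lower. The dashed line marks the median tested gene at -0.62 and the dotted line marks -0.94, where 0 would lie under scaling by library size, and many blue points sit close to these lines.

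The genes with the smallest adjusted p among those called higher are known for varied functions, from RNA processing to redox balance. Ddx47, an RNA helicase of ribosome assembly, led them at 6.86 ± 1.22 on the log2 scale (adjusted p of 0.000165, larger mean 13 RPKM) in the authors' deposited table. Its isotype mean was at most 4.17 RPKM, so its anti-CTLA-4 mean was at least 3.11-fold higher on the RPKM scale. Pttg1ip, a partner of securin, came next at 8.00 ± 1.48 (adjusted p of 0.000421) in the authors' deposited table, with an anti-CTLA-4 mean of 17.7 RPKM and an isotype mean of at most 0.103 RPKM. Glrx3, a glutaredoxin of iron-sulphur transfer, had 479, 408 and 2020 reads with anti-CTLA-4 and a log2 fold change of 6.67 ± 1.28 (adjusted p of 0.000883) in the authors' deposited table. Prdx2, a peroxiredoxin that removes hydrogen peroxide, had 378, 657 and 1661 reads with anti-CTLA-4 and 5.58 ± 1.10 (adjusted p of 0.00141) in the authors' deposited table. The anti-CTLA-4 reads of both redox genes were spread over all 3 libraries, and for Prdx2 the bound on the isotype mean, 12.7 RPKM, lies no lower than the anti-CTLA-4 mean. Mtmr3, Atg3, Pmpca, Pramef8, Wdr61, Narfl, Tssc4 and Aplp2 completed the 12.

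Among those called lower, Lars2, Gm15564 and Rn18s-rs5 had the smallest adjusted p. Lars2, the gene of the mitochondrial leucyl-tRNA synthetase, had an isotype mean of 745 RPKM in the authors' deposited table. It fell by 2.46 ± 0.33 on the log2 scale there (adjusted p of 1.99e-09). Whether the reads counted at this locus came from the mRNA of the enzyme was not tested. Rn18s-rs5, a locus related to 18S ribosomal RNA, had an isotype mean of 505 RPKM and fell by 2.56 ± 0.40 (adjusted p of 2.48e-06) in the authors' deposited table. Gm15564, a predicted gene named here after its value was seen, stood at -2.57 ± 0.39 (adjusted p of 8.67e-07) in the authors' deposited table. The other arms were compared with the same isotype libraries. There Lars2 had log2 fold changes of -1.49 after anti-PD-1 DANA and 2.04 with the combination, Rn18s-rs5 -1.46 after anti-PD-1 DANA and 1.16 with the combination, and Gm15564 -1.50 after anti-PD-1 DANA and 2.05 with the combination in the authors' deposited tables, so all 3 were positive in the combination table. Proser1, Ap5b1, Zfp433, Zfp942, Ptpn21 and Adgrd1 were the remaining genes of this rank that belong to no list below.

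Gene lists were set against these backgrounds of 4.23% called and a median log2 fold change of -0.62. Over 48 lists, 1736 tested members included 47 called higher and 32 called lower (4.55%), and 675 called genes belonged to no list. That share is near the one of all tested genes, which include many at or below 0.1 RPKM, none of them called. Tested genes of 1 RPKM or more were called in 7.65%, the closer background for lists of abundant genes. There were 13 lists with no called member.

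**Figure D5:**
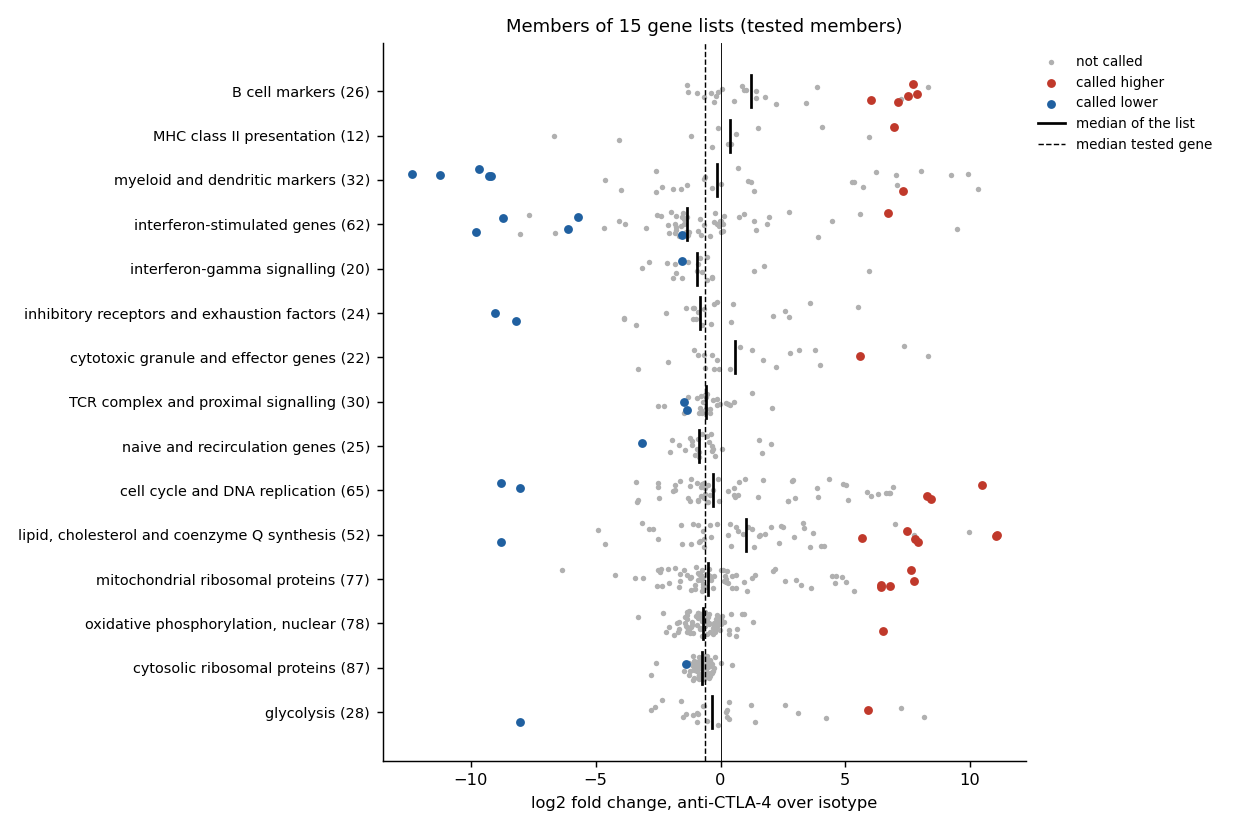
Log2 fold change of anti-CTLA-4 over isotype for every tested member of 15 of the 48 lists, with the number tested in parentheses; red members were called higher, blue lower and grey were not called. The black bar is the median of a list and the dashed line the median tested gene at -0.62. Medians of most lists lie close to it, and that of the interferon-stimulated list lies at -1.36. Those of the B cell, lipid, cytotoxic granule and MHC class II lists lie above 0.

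Genes of T cell inhibition, killing and differentiation had calls in both directions. Of 24 tested inhibitory receptors and exhaustion factors 0 were called higher and 2 lower (8.33%, median log2 fold change -0.82). These were Lag3, a receptor for MHC class II, with an isotype mean of 24.9 RPKM, and Cd200r1, the receptor for CD200, with 13.2 RPKM in the authors' deposited table. The log2 fold change of Lag3 was -8.20 with anti-CTLA-4, -2.09 after anti-PD-1 DANA and -0.96 with the combination in the authors' deposited tables, with adjusted p of 0.000165, 1 and 1. Ctla4 itself was scarce, with a larger mean of 1.46 RPKM and a log2 fold change of -2.19 ± 2.10 in the authors' deposited table. Pdcd1, which encodes PD-1, had 18.4 RPKM and -1.38 ± 1.47 there, again from the authors' deposited table. Neither gene of the targeted receptors was called.

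Of 22 tested cytotoxic granule and effector genes 1 was called higher and 0 lower (4.55%, median 0.58). That share is near the one of all tested genes and below the 7.65% of those at 1 RPKM or more. Prf1, perforin, had a larger mean of 12.8 RPKM with anti-CTLA-4 against at most 6.09 RPKM with isotype in the authors' deposited tables. Fasl, the death ligand, had 0, 0 and 853 reads in the anti-CTLA-4 libraries, a larger mean of 4.96 RPKM and a log2 fold change of 8.31 ± 2.58 that missed the threshold (adjusted p of 0.0661) in the authors' deposited table. Ifng, which encodes interferon-gamma, had 14.2 RPKM and -1.91 ± 1.86 (adjusted p of 1) in the authors' deposited table. Among 45 tested effector and memory transcription factors 1 was called higher and 2 lower (6.67%, median -0.92). The one called higher was Tbx21, the factor T-bet, with 564, 578 and 1642 reads in the anti-CTLA-4 libraries, a larger mean of 16.6 RPKM and an isotype mean of at most 7.90 RPKM in the authors' deposited tables. Klf2 was among the 2 called lower.

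The lists of negative regulators, costimulators and cytokine receptors each had 1 called member. Their shares are near the 4.23% of all tested genes and below the 7.65% of those at 1 RPKM or more. Of 26 negative regulators of T cell receptor signalling 1 was called higher and 0 lower (3.85%). This was Dusp5, a nuclear phosphatase of ERK, with 294, 267 and 103 anti-CTLA-4 reads. Its log2 fold change was 6.36 ± 1.83 (adjusted p of 0.0388) in the authors' deposited table. Of 17 costimulators 1 was called higher and 0 lower (5.88%), Tnfsf14, the ligand LIGHT. Tnfsf14 had an anti-CTLA-4 mean of 8.41 RPKM and an isotype mean of at most 0.198 RPKM in the authors' deposited tables. Nfkbid, an atypical inhibitor of NF-kB, had 1329, 1054 and 918 reads with anti-CTLA-4 and 6.06 ± 1.40 on the log2 scale (adjusted p of 0.00541) in the authors' deposited table. Its reads were high in all 3 anti-CTLA-4 libraries. Il15ra, the chain that presents interleukin-15, was the called member of 29 cytokine receptors (3.45%). It had 4.69 RPKM with anti-CTLA-4 against at most 0.0292 RPKM with isotype in the authors' deposited tables. Cd28 and Cd86, which bind each other, had log2 fold changes of -0.97 ± 1.18 and 5.80 ± 1.91 and were not called (adjusted p of 1 and 0.0945) in the authors' deposited table. The reads of Cd86 were 395, 3 and 1 in the anti-CTLA-4 libraries, so nearly all came from the smallest library.

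Of 62 tested interferon-stimulated genes 1 was called higher and 5 lower (9.68%), with a median log2 fold change of -1.36, which was -0.74 when centred and -0.41 by library size. Those called lower included Oas1b, Oasl1, Cmpk2 and Ifit3. Oasl1, an antiviral protein of the oligoadenylate synthetase family, had 1027, 3 and 1 reads in the isotype libraries and a log2 fold change of -9.80 ± 2.34 (adjusted p of 0.00774) in the authors' deposited table. Ifit3, an interferon-induced protein that binds viral RNA complexes, had 3, 1643 and 439 reads in the isotype libraries and -6.13 ± 1.81 (adjusted p of 0.0479) in the authors' deposited table. The isotype level of Oasl1 therefore rested on the smallest library. That of Ifit3 rested mostly on the middle library, which gave 83.3% of its mean. Cmpk2, a nucleotide kinase induced by interferon, had an isotype mean of 9.35 RPKM and Oas1b one of 30.9 RPKM in the authors' deposited table. The calls of Oas1b and Ifit3 were lost under both other scalings, at -5.09 and -5.51 when centred. Tor3a, an interferon-responsive AAA protein, was called higher with 497, 3 and 83 reads in the anti-CTLA-4 libraries. Of 20 genes of interferon-gamma signalling 0 were called higher and 1 lower (5%). Of 19 interferon-induced GTPases and 23 genes of MHC class I processing none was called, while 5 and 8 had an unadjusted p under 0.05.

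Promoters of interferon-stimulated genes called lower are shown because genes of this group commonly carry an interferon-stimulated response element near their start. The promoter sequences, from 250 bases before to 50 bases after the start of the gene, are those of RefSeq on GRCm38.p6, and entries were matched for Oasl1, Cmpk2 and Ifit3 but not for Oas1b. Capitals mark matches to GAAANNGAAA on either strand (TTTCNNTTTC as printed), and the matches do not overlap one another. The Oasl1 promoter lies at chr5:114922990-114923289, that of Cmpk2 at chr12:26468965-26469264 and that of Ifit3 at chr19:34583279-34583578, each on the plus strand.
Oasl1: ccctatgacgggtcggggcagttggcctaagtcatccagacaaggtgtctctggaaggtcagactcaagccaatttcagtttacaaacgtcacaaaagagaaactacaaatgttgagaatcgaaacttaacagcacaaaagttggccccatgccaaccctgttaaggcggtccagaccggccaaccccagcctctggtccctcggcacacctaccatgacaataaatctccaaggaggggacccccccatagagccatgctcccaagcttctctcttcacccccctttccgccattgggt
Cmpk2: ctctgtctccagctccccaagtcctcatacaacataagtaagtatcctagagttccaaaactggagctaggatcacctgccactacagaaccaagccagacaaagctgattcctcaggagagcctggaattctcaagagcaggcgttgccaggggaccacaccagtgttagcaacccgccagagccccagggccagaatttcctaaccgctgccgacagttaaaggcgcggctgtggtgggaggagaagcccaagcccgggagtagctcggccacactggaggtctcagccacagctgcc
Ifit3: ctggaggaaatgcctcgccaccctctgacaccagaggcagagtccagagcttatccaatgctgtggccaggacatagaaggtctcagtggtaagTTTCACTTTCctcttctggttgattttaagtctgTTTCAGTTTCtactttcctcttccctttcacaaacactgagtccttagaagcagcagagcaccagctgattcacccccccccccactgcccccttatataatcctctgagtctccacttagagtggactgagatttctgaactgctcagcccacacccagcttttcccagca
Ifit3 held 2 matches, while Oasl1 and Cmpk2 held 0 in this window. The motif stood in 3.44% of all 32851 promoters, in 3.91% of the 11735 tested genes with a promoter and in 23 of 47 tested interferon-stimulated genes with one (48.9%). A match is a run of letters and not a measured site.

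The list with the most members called higher was a metabolic one. Of 52 tested genes of lipid, cholesterol and coenzyme Q synthesis 6 were called higher and 1 lower (13.5%), with a median of 1.01. Lss, lanosterol synthase, had 253, 318 and 1166 reads in the anti-CTLA-4 libraries and a log2 fold change of 7.90 ± 1.89 (adjusted p of 0.00774) in the authors' deposited table. Coq2, a prenyltransferase of coenzyme Q synthesis, had 79, 362 and 684 reads with anti-CTLA-4 and 5.67 ± 1.59 (adjusted p of 0.0328) in the authors' deposited table. Both were present in every anti-CTLA-4 library. Cpt1a, which admits fatty acids to mitochondria for oxidation, stood at 7.81 ± 1.78 (adjusted p of 0.00488) with an anti-CTLA-4 mean of 7.64 RPKM and an isotype mean of at most 0.884 RPKM in the authors' deposited tables. The other 3 called higher rested on fewer libraries. Mvd, an enzyme of the mevalonate pathway, had 241, 0 and 1459 anti-CTLA-4 reads, Mid1ip1, an activator of acetyl-CoA carboxylase, 814, 0 and 44, and Coq8a, a kinase-like protein of coenzyme Q synthesis, 1, 0 and 1539. Coq7, a hydroxylase of the same pathway, was the member called lower, at -8.78 ± 2.43 (adjusted p of 0.0286) in the authors' deposited table.

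Of 77 tested mitochondrial ribosomal protein genes 5 were called higher and 0 lower (6.49%), although the median of the list was -0.51. Mrps18a had 451, 521 and 1425 reads in the anti-CTLA-4 libraries, Mrpl45 had 409, 359 and 973, Mrpl55 had 135, 619 and 575, and Mrps31 had 129, 337 and 291. Each of these 4 had more than 100 reads in every anti-CTLA-4 library. Mrpl3, the fifth, stood at 6.79 ± 1.54 on the log2 scale (adjusted p of 0.00471) in the authors' deposited table. Of 78 tested nuclear genes of oxidative phosphorylation 1 was called higher (1.28%), Ndufc2, a subunit of complex I, with 163, 713 and 704 anti-CTLA-4 reads and a level of 31.9 RPKM in the authors' deposited table. None of the 13 mitochondrially encoded genes was called and 2 had an unadjusted p under 0.05. Of 87 cytosolic ribosomal protein genes 1 was called lower (1.15%). A log2 fold change below 0 was found in 85 as deposited by the authors, 61 when centred and 20 by library size.

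In amino acid, nucleotide and folate metabolism 3 of 42 tested genes were called higher and 1 lower (9.52%). Of all tested genes at 1 RPKM or more 7.65% were called. Got1, the cytosolic aspartate aminotransferase, had 249, 745 and 1742 anti-CTLA-4 reads and a log2 fold change of 7.35 ± 1.71 (adjusted p of 0.006) in the authors' deposited table. Ctps, which makes CTP, had 279, 1067 and 5 reads with anti-CTLA-4, and Mthfs, an enzyme of the folate cycle, had 39, 243 and 818. Tyms, thymidylate synthase, was called lower with 1, 114 and 353 reads in the isotype libraries and a mean of 0.845 RPKM in the authors' deposited table. In glycolysis 1 of 28 was called higher and 1 lower (7.14%), near that share. Pdk3, a kinase that shuts pyruvate dehydrogenase, had 613, 344 and 1359 reads with anti-CTLA-4, against 1, 19 and 5 with isotype. Ldhb, which encodes the heart-type lactate dehydrogenase chain, was called lower with 1723, 20 and 0 reads in the isotype libraries, so its isotype level came from the smallest library.

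Cell cycle genes were called in both directions, with 3 higher and 2 lower of 65 tested (7.69%). That share is near the 7.65% of all tested genes at 1 RPKM or more. Bub1b, a kinase of the spindle checkpoint, had 1, 0 and 926 reads in the anti-CTLA-4 libraries, and Rpa3, a subunit of replication protein A, had 2, 493 and 330. Pole, the catalytic subunit of DNA polymerase epsilon, stood at 8.26 ± 2.19 (adjusted p of 0.021) in the authors' deposited table. Cdc45, a component of the replicative helicase, was called lower at -8.78 ± 1.73 (adjusted p of 0.00141) and an isotype mean of 24.1 RPKM in the authors' deposited table, and Tyms was the other. In the lists of mTOR, PI3K and autophagy 3 of 50 were called higher and 2 lower (10%). Atg3, the conjugating enzyme that lipidates LC3, stood at 5.97 ± 1.18 (adjusted p of 0.00141) in the authors' deposited table, and Gabarapl1, a relative of LC3, had 208, 325 and 0 anti-CTLA-4 reads. Ocrl, a phosphoinositide phosphatase, was the third called higher. Those called lower included Pik3cb, a catalytic subunit of PI3K, at -8.09 ± 2.14 (adjusted p of 0.0201) in the authors' deposited table.

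Cell death and stress genes were called in both directions. Casp6, an effector caspase, was called higher, and Htra2, a protease released from mitochondria, and Birc6, an inhibitor of apoptosis, lower, 3 of 33 members (9.09%). None of 18 BCL2 family genes was called, while 7 had an unadjusted p under 0.05, and Bcl2 itself stood at -1.43 ± 0.48 (adjusted p of 0.111) in the authors' deposited table. Members of further lists that were called higher included Gadd45b, Rgs1, Dnajb9, Eif1a, Setdb1 and the proteasome subunits Psmd1 and Psmd5. Setdb1, a histone H3 lysine 9 methyltransferase, had 220, 440 and 590 reads in the anti-CTLA-4 libraries. Members of further lists that were called lower included E2f2, Hspa1a, Eif2b3, Ccl7 and Myo1h, of which Ccl7, a monocyte chemokine, had 0, 726 and 1 reads in the isotype libraries.

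Markers of other cell types were present and moved in both groups of calls. Of 26 tested B cell markers 5 were called higher and 0 lower (19.2%), with a median log2 fold change of 1.21, which was 1.83 when centred and 2.16 by library size. Spib, an ETS factor that B cells and plasmacytoid dendritic cells use, had 566, 444 and 2211 reads with anti-CTLA-4, against 1, 4 and 3 with isotype. Ly6d, a surface protein of early and mature B cells, had 530, 550 and 1512 reads with anti-CTLA-4 and was, at 51.9 RPKM, the gene of highest level among all called higher in the authors' deposited table. Fcer2a, the IgE receptor CD23, had 759, 1007 and 211 anti-CTLA-4 reads, and Ms4a1, which encodes CD20, had 972, 446 and 599. All 4 were well above 100 reads in every anti-CTLA-4 library. Pou2af1, a coactivator of immunoglobulin transcription, had an anti-CTLA-4 mean of 7.04 RPKM and an isotype mean of at most 0.0177 RPKM in the authors' deposited tables. In 23 markers with a known anti-CTLA-4 mean, levels summed to 822 RPKM with anti-CTLA-4 and to at most 338 RPKM with isotype, while the other 3, Cd72, Fcmr and Blnk, had the larger mean with isotype. An anti-CTLA-4 mean is known only where it is the larger one, so the direction of these sums is fixed by which markers enter them. None of the 26 had a larger mean of 0. The markers of highest level, Igkc and Ighm, immunoglobulin constant genes, had larger means of 248 and 242 RPKM and log2 fold changes of 0.55 ± 0.94 and -0.12 ± 0.52, and Cd79b, a chain of the B cell receptor, stood at -0.67 ± 1.22, all uncalled in the authors' deposited table. The sign of Ighm turned to 0.50 when centred, and library size scaling placed Ighm at 0.82 and Cd79b at 0.28. As deposited, 18 of the 26 markers had a log2 fold change above 0 and 8 below. Igkc, Ighm, Cd79b and Cd79a are named here after their values were seen. Cd79a, the partner of Cd79b, had 75.6 RPKM with anti-CTLA-4 against at most 26.3 RPKM with isotype and was not called (adjusted p of 1) in the authors' deposited tables. H2-Oa, a chain of the MHC class II chaperone H2-O, was the called member of 12 class II genes (8.33%). In bulk RNA fewer cells of a type and less RNA per cell cannot be told apart, and the part of other cells in the changes of the sorted pools was not tested.

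Of 32 tested myeloid and dendritic markers 1 was called higher and 5 lower (18.8%). As deposited, 16 had a log2 fold change below 0 and 16 above. Their median was -0.16, which was 0.46 when centred and 0.78 by library size, so the list as a whole was not lower. Timd4, a phosphatidylserine receptor of resident macrophages, had 1, 1215 and 0 reads in the isotype libraries, C1qa, a chain of complement C1q, had 1, 867 and 1, and Fcgr3, an Fc receptor, had 467, 3 and 0. Each was thus carried by 1 of 3 isotype libraries, and the call of Fcgr3 was lost under both other scalings. Axl and Mpeg1 were the others called lower, at -9.28 ± 1.91 and -9.18 ± 2.31 on the log2 scale (adjusted p of 0.00183 and 0.0126) in the authors' deposited table. Ccr2, a chemokine receptor of monocytes and of activated T cells, was the member called higher, with an anti-CTLA-4 mean of 4.92 RPKM and an isotype mean of at most 1.33 RPKM in the authors' deposited tables. Levels summed to 152 RPKM with anti-CTLA-4 over the 18 markers whose mean is known there and to 153 RPKM with isotype over the 19 whose mean is known there, so the sums cover different markers. Of the 32 tested, 9 had a larger mean under 0.05 RPKM, and 7 further members were not tested. Among 18 tested markers of CD4, regulatory, gamma-delta and natural killer cells 1 was called higher and 1 lower (11.1%). Cd4 was called higher with 132, 401 and 0 reads in the anti-CTLA-4 libraries, and Fcgr3 was called lower. Of 6 tested prostate epithelial markers none was called and 1 had an unadjusted p under 0.05, with Epcam, an epithelial adhesion protein, highest at 1.70 RPKM in the authors' deposited table.

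Of 161 tested T cell receptor alpha segments 3 were called higher and 1 lower (2.48%), and of 36 beta segments 0 were called, while 1 had an unadjusted p under 0.05. The alpha segments are named here after their values were seen. Trav12d-2 had 99, 117 and 211 reads in the anti-CTLA-4 libraries, Trav12n-2 had 102, 108 and 205, and Trav12-2 had 105, 86 and 289. The transcripts of Trav12d-2 and Trav12n-2 are identical in GENCODE M21, with 91% identity to Trav12-2, so reads could be split among these copies and their separate values are uncertain. Trav8-2 was called lower with 1, 540 and 0 reads in the isotype libraries, and this call was lost under both other scalings.

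The kind of gene differed between the directions. Of 14175 tested protein-coding genes 477 were called higher and 220 lower, whereas of 1025 antisense genes 1 was called higher and 17 lower. At a larger mean of 1 RPKM or more, 5.46% of protein-coding genes were called higher and 2.40% lower, against 0.37% and 6.30% of 270 antisense genes and 2.50% and 5.50% of 200 long intergenic noncoding RNAs. Whether counting used the strand is not given in the sources used here, so reads of an antisense gene and its partner cannot be told apart. Over the autosomes and the X chromosome between 3.16% and 5.41% of tested genes were called. By the coordinates of the authors' deposited table on GRCm38.p5, Klf2 lies on chromosome 8 at 72319033 to 72321656, Ly6d on chromosome 15 at 74762056 to 74763620, and Lars2 on chromosome 9 at 123366940 to 123462664.

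The other treated arms were compared with the same isotype libraries, and their values are therefore given side by side only. Fold changes of Tbx21 were 7.27 with anti-CTLA-4, 6.65 after anti-PD-1 DANA and 6.97 with the combination on the log2 scale of the authors' deposited tables, each called. Those of Prf1 were 5.57 after anti-CTLA-4, 7.07 after anti-PD-1 DANA and 5.34 with the combination in the authors' deposited tables, each called as well. Other genes had an adjusted p of 1 in the tables of the other arms. Spib was at 7.89 with anti-CTLA-4, 2.25 after anti-PD-1 DANA and -0.22 with the combination in the authors' deposited tables, with adjusted p of 0.00212, 1 and 1. Hspa1a, an inducible heat shock chaperone, was at -8.31 with anti-CTLA-4, -1.35 after anti-PD-1 DANA and -0.91 with the combination in the authors' deposited tables, with adjusted p of 0.00141, 1 and 1. Proser1 was at -8.11 with anti-CTLA-4, -2.39 after anti-PD-1 DANA and -1.30 with the combination, with adjusted p of 0.000883, 1 and 1 in the authors' deposited tables. Whether these effects differ between treatments was not tested here. In all, 669 genes (3.75%) were called after anti-PD-1 DANA and 1343 (7.53%) with the combination in the authors' deposited tables.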

How the data were processed

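RNA of 6 libraries of sorted CD8 T cells entered this comparison, 3 with anti-CTLA-4 and 3 with isotype, of 12 in the series. Alignment and quantification used CLC Genomics Workbench, per the labels' protocols, on GRCm38.p5, per the submitters' processing notes. For its version, annotation and model, nothing is stated in the sources. For each gene the authors deposited the larger group mean in RPKM (unit read from the values), the log2 fold change with its signed linear form, and p-values, including a Benjamini-Hochberg false discovery rate and a Bonferroni p over all 48709 listed genes. The table gives no value per library, so the authors' false discovery rate is the test, and a gene is called under 0.05. Of 30876 untested genes 2009 had a mean above 0. No column of values from other samples was left aside (0).

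From these values an SE was computed by dividing the size of the log2 fold change by the normal deviate that matches its p-value, as in a Wald test. Isotype means were taken where tables of different arms share a mean, and the smallest larger mean of the 3 tables bounds the isotype mean. Library sizes and whole reads per library were solved from the decimals of the means with exon lengths of GENCODE M21, to which 99.3% of genes matched by identifier. Of the means tried 65.6% (isotype) and 70.2% (anti-CTLA-4) were solved, against 1.08% and 0.919% with exon lengths off by 1 base, so a few solutions may be false. On simulated anti-CTLA-4 means 98.5% (325 of 330) were solved. Both groups' reads were solved for 1954 tested genes, 19 of them called, and no model was fitted to that selected subset. Such counts cover counting error only, since preamplified reads without molecular identifiers are not independent molecules.

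Named genes are the called members of the lists (the 2 of highest level where none was called), the 12 with the smallest adjusted p and the 10 of highest level called in each direction, called genes with an SE under 1, the 20 of highest level, and receptors and ligands of the CTLA-4, PD-1 and interferon-gamma pathways. Some genes that these rules name are not reported here. The comparison, the 48 lists and the rules were chosen with earlier results of these data known. Alternatives were adjustment over tested genes, Bonferroni adjustment, level minimums of 1 and 5 RPKM, centring, library size scaling, removal of genes resting on 1 library, and an SE limit of 1. Python 3.11.15, numpy 2.4.6, pandas 2.3.3, scipy 1.17.1, numba 0.67.0 and matplotlib 3.10.9 were used.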

Additional observations from a re-analysis of the deposited data

How the results depend on the processing

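The count of 754 called genes, 488 higher and 266 lower, became 1616 (1077 higher, 539 lower) when p-values were adjusted over tested genes only, 27 (11 higher, 16 lower) with Bonferroni adjustment, and 2055 (1420 higher, 635 lower) when genes of 1 RPKM or more were adjusted alone. It became 36 (3 higher, 33 lower) among genes with an implied SE under 1, which removes most genes by construction. Scaling by library size gave 1367 calls, 1188 of them higher, and centring gave 904 higher calls. Leaving out genes known to rest on 1 library gave 150 lower calls by construction. Counts under the remaining alternatives, a minimum of 5 RPKM among them, stayed within 1.5 times the deposited ones. Called members of the lists numbered 79, and 233 when genes of 1 RPKM or more were adjusted alone. The called share at 1 RPKM or more was 7.65%, and 15.6% with adjustment over tested genes. Why these counts move was not tested beyond what each setting removes.

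Of 132 genes named in the text, centring ended the call of 14, left 111 on the same side of the threshold with the same sign, and turned the sign of the uncalled Cd8a (0.49), Cd3e (0.19) and Ighm (0.50). Library size scaling likewise ended 15 calls and turned Cd8a (0.81), Cd3e (0.52), Cd72 (0.01), Ighm (0.82) and Cd79b (0.28). The calls ended by centring are of genes called lower, and the uncalled genes that became called numbered 4 with centring, 5 with library size scaling and 6 with adjustment over tested genes. Of 96 counts of list members by direction, 66 stayed within 1.5 times under centring and 42 under the minimum of 1 RPKM.

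No paired analysis was possible because the deposited tables hold no value by replicate number. For the same reason fits with other normalizations (DESeq2 size factors, TMM) and without each library in turn were not run. Since the deposited table gives only the larger group mean, the anti-CTLA-4 mean of genes called lower cannot be read, and no fold on the RPKM scale is given for them.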

Other observations

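The chains of complement C1q, a macrophage product, did not move together, and this was noticed after the values were seen. C1qa was called lower, with 1, 867 and 1 reads in the isotype libraries. C1qb, which was not called, had 0, 2 and 698 reads in the anti-CTLA-4 libraries, a log2 fold change of 9.92 ± 3.33 and an adjusted p of 0.106 in the authors' deposited table. C1qc, which was not called either, had 159, 170 and 402 reads in the anti-CTLA-4 libraries, 10.33 ± 3.16 on the log2 scale and an adjusted p of 0.0597 in the authors' deposited table. Genes of 1 complex thus had fold changes of opposite sign, with 1 library carrying C1qa and C1qb and all 3 anti-CTLA-4 libraries carrying C1qc.

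Hba-a2, a chain of haemoglobin and a marker of red cells, had a mean of 14.3 RPKM with anti-CTLA-4 against 0.0625 RPKM with isotype and missed the threshold (adjusted p of 0.0537) in the authors' deposited table.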
